A study of Komagataella phaffii CBS 7435 with 16 samples.

Results

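Komagataella phaffii is a methylotrophic yeast grown in fermenters to produce recombinant proteins. In 16 RNA-seq libraries of its wild-type strain CBS7435, 50 abundant features met limits on how far their share of nuclear counts varied across oxygen supply and time. They are 50 of 666 abundant features (7.51%) and of 5362 nuclear features whose identifiers end in t (0.932%), out of 5564 features in all. Members were chosen from the measured values. CPM here is the estimated count of a feature per 1000000 of the library's summed counts over nuclear t features. A member had a mean of at least 300 CPM over the 16 libraries, a coefficient of variation (SD divided by mean) below 10%, and group means that differed by less than 1.15-fold from highest to lowest. Features among the first or last 20 t identifiers of a chromosome were left out.

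The 4 groups of 4 libraries came from glucose-limited chemostats at 25 °C, pH 5.5 and a dilution rate of 0.075 per hour. In a chemostat, fresh medium replaces culture at a fixed rate, so time can be counted in volume changes of the reactor. The labels name 0% oxygen at 0.4, 4 and 5 volume changes and 30% oxygen at 5 volume changes. The treatment protocol gives the same sampling points as 5, 50 and 70 h on inlet air with 8% oxygen, and as 66 h on air with 21%. The points are numbered 1 for 30% at 5 VC (volume changes) and 2, 3 and 4 for 0% at 0.4, 4 and 5 VC. The groups carry the label names here, shortened to 0% at 0.4, 4 or 5 VC and 30% at 5 VC. All 4 groups share the strain, the medium and the depletion of ribosomal RNA before sequencing. The labels call the 4 libraries of a group biological replicates and do not say whether samples of different groups were drawn from one reactor run.

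Transcripts whose level changes little between conditions serve as internal references when other transcripts are measured, for example by quantitative PCR. In yeasts such transcripts are usually sought among genes for basic cell upkeep, such as the cytoskeleton, protein synthesis, protein turnover and central metabolism. A share of the library says nothing on the number of molecules per cell. In bulk RNA, fewer cells and less RNA per cell cannot be told apart, and a constant share does not show a constant amount. The tables do not pair identifiers with gene names, and 0 of 5040 genes of the reference table (assembly ASM2700v1) matched an identifier, so the members are given by identifier, chromosome and coding length.

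Libraries held 23085262 to 40699763 estimated counts. Nuclear t features took 95.04% to 98.4% of them. Of 5452 features tested, which include all 50 members, 3432 (62.9%) differed among the 4 groups in edgeR's joint quasi-likelihood test at an adjusted p under 0.05. For the members, the lowest count in any library was 6150, and the coefficient of variation that counting alone would give had a median of 0.817% (0.366% to 0.995%). All 50 members had whole-number counts in all 16 libraries to within 1e-06, against 18 of the 616 other abundant features with at least 1 count that was not whole. A count that is not whole shows reads shared between features, so no such sharing was visible for the members.

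The word abundant holds for reads more than for transcripts. Members averaged 301 to 2243 CPM, with a median of 447 CPM, against 511 CPM for the other abundant features. Per length, their median was 108 TPM (the deposited abundance per effective length, 50.5 to 1445), against 243 TPM for the other abundant features and 48.6 TPM for all 5202 nuclear t features outside the chromosome ends. The median member stood at the 76.6th percentile of all 5362 nuclear t features by TPM, against 89.6 for the other abundant features. By TPM the members therefore lay mostly in the upper part of the transcriptome. Their median was below that of the other abundant features, which also had a higher median CPM and were not matched to them on reads. The 2 highest members per length were PP7435_Chr1-1214.t01, the shortest at 477 nt, with 1445 TPM, and PP7435_Chr1-0750.t01 (1197 nt) with 1368 TPM. The longest, PP7435_Chr1-1376.t01 at 11478 nt, had 110.1 TPM although it was among the highest by CPM.

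Taken as a sum, the members held 2.87 ± 0.0675% of nuclear t counts in 0% at 0.4 VC and 2.87 ± 0.137% in 0% at 4 VC. They held 2.86 ± 0.106% in 0% at 5 VC and 2.88 ± 0.0637% in 30% at 5 VC (SD, n = 4 each). Single libraries ran from 2.68% in replicate 2 of 0% at 4 VC to 3.00% in replicate 3 of the same group. The lowest and the highest sum thus came from replicates of 1 group.

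The steadiest member was PP7435_Chr4-0916.t01, 2259 nt long and on chromosome 4, whose coefficient of variation over the 16 libraries was 3.63%. It had 383, 361, 378 and 382 CPM in 0% at 0.4 VC, and 387, 363, 356 and 369 CPM in 0% at 4 VC. It had 398, 380.3, 377 and 380.3 CPM in 0% at 5 VC, and 391, 384, 403 and 357 CPM in 30% at 5 VC. The 4 groups overlapped throughout, and its highest library stood 1.13-fold above its lowest, the smallest such ratio among the members. In edgeR its log2 fold change was 0.09 ± 0.08 (SE) in 0% at 0.4 VC, -0.01 ± 0.08 at 4 VC and 0.02 ± 0.08 at 5 VC, each against 30% at 5 VC. The widest of these 95% intervals reached from -0.08 to 0.26.

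The next steadiest were PP7435_Chr1-0486.t01 (5.56%), PP7435_Chr2-0436.t01 (5.58%), PP7435_Chr4-0539.t01 (5.80%), PP7435_Chr2-0035.t01 (5.89%) and PP7435_Chr1-1350.t01 (5.95%). Of these, PP7435_Chr1-1350.t01 (4971 nt, chromosome 1) had the most reads, and its values did separate between some groups. It had 1623, 1590.0, 1486 and 1572 CPM in 0% at 0.4 VC, 1631, 1439, 1586 and 1552 CPM in 0% at 4 VC, and 1526, 1328, 1559 and 1515 CPM in 0% at 5 VC. At 30% oxygen its values were 1735, 1586, 1644 and 1610.2 CPM. All 4 values of 0% at 5 VC lay below all 4 of 30% at 5 VC, while the earlier 0% groups overlapped with 30% at 5 VC. In edgeR the log2 fold change of 0% at 5 VC against 30% at 5 VC was -0.13 ± 0.08 and did not pass the threshold (adjusted p = 0.229).

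**Figure D1:**
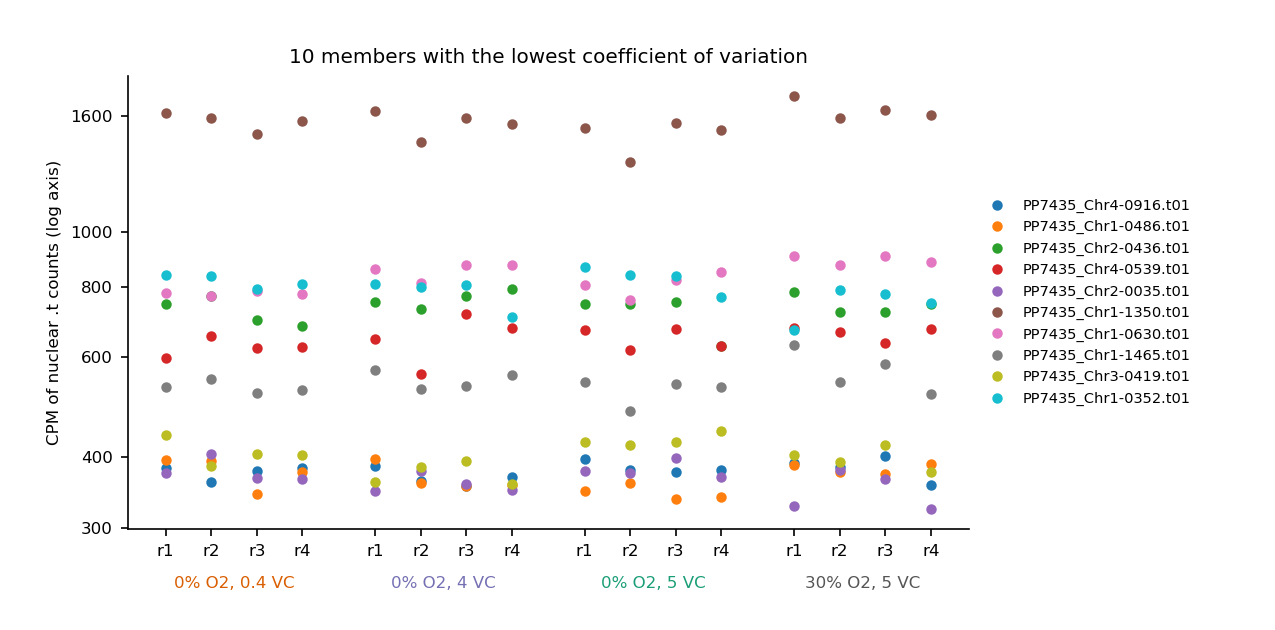
CPM (log axis) of the 10 members with the lowest coefficient of variation, in each of the 4 replicates (r1 to r4) of the 4 groups; each point is 1 library and VC stands for volume changes. PP7435_Chr4-0916.t01 stays between 356 and 403 CPM, and PP7435_Chr2-0436.t01 stands at 628 CPM in replicate 4 of 0% at 5 VC.

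PP7435_Chr2-0436.t01 (3570 nt, chromosome 2) shows how 1 library can carry much of a member's spread. It had 746, 769, 698 and 681 CPM in 0% at 0.4 VC, 751, 731, 770.4 and 794 CPM in 0% at 4 VC, and 745, 747, 751 and 628 CPM in 0% at 5 VC. The 30% libraries had 783, 722, 721 and 746 CPM. The groups overlapped, and the lowest of the 16 values was replicate 4 of 0% at 5 VC. PP7435_Chr1-0486.t01 (2451 nt, chromosome 1) differed the other way: within 0% at 5 VC its values were close, at 348, 359.9, 338 and 340.4 CPM. They lay below the 388, 377, 374 and 389 CPM of 30% at 5 VC without overlap. Its values at 0.4 and 4 VC of 0% oxygen, 344 to 397 CPM, spanned both. Between 0% and 30% at 5 VC, 39.3% of nuclear t features had no overlap. In edgeR on the CPM scale its log2 fold change there was -0.14 ± 0.08 (SE) and was not called (adjusted p = 0.147).

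The member with most reads, PP7435_Chr1-0750.t01, differed little between group means and more within groups. It had 2198, 2282, 2216 and 2274 CPM in 0% at 0.4 VC, 1963, 1877, 2576 and 2378 CPM in 0% at 4 VC, and 2091, 2392, 2543 and 2097 CPM in 0% at 5 VC. Its values in 30% at 5 VC were 2061, 2229.9, 2276 and 2439.7 CPM. Its 4 group means differed by 1.04-fold at most, while replicates of 0% at 4 VC held both its lowest and its highest value. PP7435_Chr1-1376.t01, the longest member, had 2318, 2244, 1953 and 2063 CPM in 0% at 0.4 VC and 2390.1, 1804, 2152 and 2086 CPM in 0% at 4 VC. It had 2236, 1849, 2209 and 1911 CPM in 0% at 5 VC, and 2439.6, 2018, 1938 and 2125 CPM in 30% at 5 VC. Here too the 4 groups overlapped, with the lowest value in replicate 2 of 0% at 4 VC and the highest in replicate 1 of 30% at 5 VC.

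The thresholds of the choice cut through features that differ little. Just inside the limit on mean CPM stood PP7435_Chr2-0171.t01 and PP7435_Chr2-0991.t01, both at 301 CPM, and just outside PP7435_Chr2-1194.t01 with 297 CPM and PP7435_Chr3-0647.t01 with 279 CPM. On the coefficient of variation, PP7435_Chr2-1181.t01 at 9.99% and PP7435_Chr2-0837.t01 at 9.87% were inside, and PP7435_Chr4-0679.t01 at 10.1% and PP7435_Chr1-0463.t01 at 10.2% outside. On the ratio of group means, PP7435_Chr2-0840.t01 and PP7435_Chr2-0451.t01 were inside and PP7435_Chr3-0746.t01 and PP7435_Chr2-0898.t01 outside, at 1.15 to 3 digits in all 4 cases. Of the 666 abundant features, 72 met the limit on the coefficient of variation and 85 the limit on the ratio; 22 met the first alone and 35 the second alone. A further 559 met neither, and 1 feature of the chromosome ends met all limits on level and spread.

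Between libraries the members still moved by several percent. Of their 800 values, 80.2% lay within 10% of the member's own mean, against 39.2% for all abundant features. The highest library of a member stood 1.35-fold above its lowest in the median (1.13 to 1.47), against 1.91-fold for all abundant features. Both differences follow from the choice and are given as a description. The largest departures were PP7435_Chr2-1205.t01 in replicate 2 of 0% at 5 VC, 20.4% below its mean at 565 CPM, and PP7435_Chr2-0319.t01 in replicate 2 of 0% at 4 VC, 23.8% above its mean at 443 CPM. The within-group coefficient of variation of the members had a median of 8.09% (3.05% to 10.6%), beside 8.35% over all 16 libraries. For all abundant features the within-group median was 10.8%, and that over all libraries 18.7%. The limit on the ratio of group means holds the members' 2 medians close, so this too is a description.

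**Figure D2:**
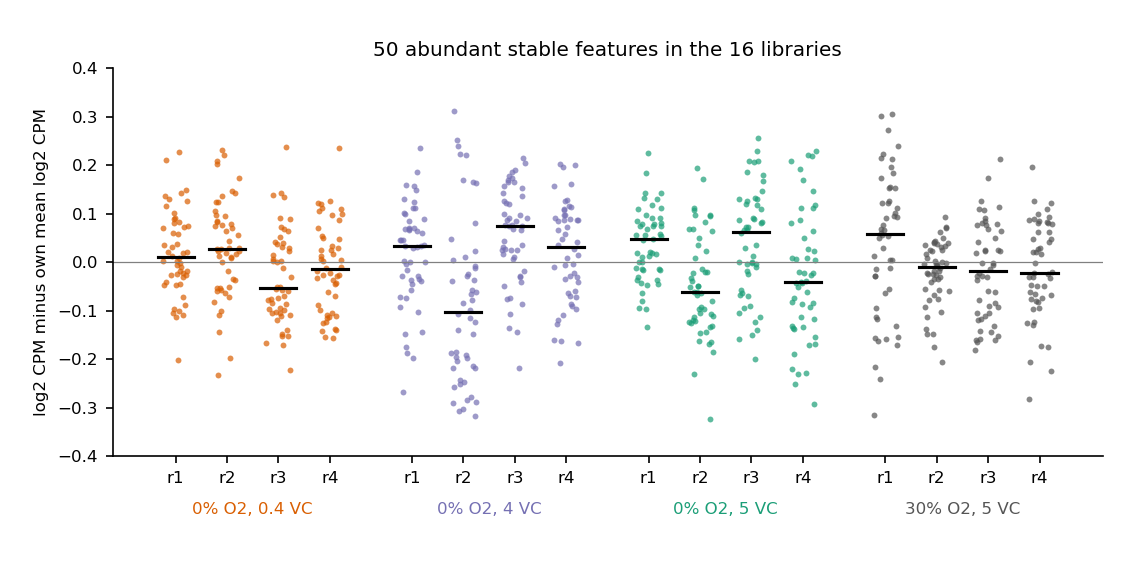
Departure of each member from its own mean log2 CPM (y axis) in the 16 libraries, with 1 point per member and library and a bar at the median of the 50 members. Medians run from -0.10 in replicate 2 of 0% at 4 VC to 0.07 in replicate 3 of that group, and the widest ranges are in replicate 2 of 0% at 4 VC and replicate 1 of 30% at 5 VC.

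A pair of libraries stood apart. Replicate 2 of 0% at 4 VC held the lowest of the 16 values for 18 of the 50 members and the highest for 6. Replicate 1 of 30% at 5 VC held the highest value for 10 members and the lowest for 4. Only 20 members in the first library and 29 in the second lay within 1.1-fold of their own mean, against 33 to 46 in the other 14 libraries. Here the mean was taken on log2 CPM, unlike for the share of values within 10% given above. On the CPM scale, on which the choice had limited the ratio of group means, the highest group mean fell in 0% at 0.4 VC for 12 members, in 0% at 4 VC for 10, in 0% at 5 VC for 12 and in 30% at 5 VC for 16. The lowest group mean fell in these groups for 11, 11, 10 and 18 members in the same order.

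The choice was repeated without 1 library at a time, which leaves that library's values unused. Between 41 and 54 members were then found (median 48). In the library left out, a median of 74.2% of these members lay within 10% of their mean over the other 15 libraries, against 36.0% of all abundant features. The lowest share was 33.3%, in replicate 2 of 0% at 4 VC, and the highest 89.4%. For all abundant features the range was 26.3% to 53.3%. Other replicates of the same group took part in each choice, so this difference is a description as well. Of the 50 members, 25 were found in all 16 repeats and 4 in at most 8 of them. Another 30 features entered at least once and 0 of them in 8 or more repeats.

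Leaving out all 4 libraries with the same replicate number gave 45, 53, 43 and 47 members for numbers 1 to 4. Of these, 37, 34, 36 and 39 were among the 50. In the 4 libraries left out, 1 per group, the highest value stood 1.17, 1.27, 1.17 and 1.18-fold above the lowest in the median member. For all abundant features these medians were 1.47, 1.58, 1.56 and 1.57. A ratio below 1.15 was held by 42.2%, 15.1%, 34.9% and 36.2% of the members found, against 8.66%, 5.46%, 7.47% and 5.69% of all abundant features. The smallest share was obtained without number 2, which includes replicate 2 of 0% at 4 VC. In libraries that took no part in their choice, the lists so found varied less than the abundant features as a whole. The lists had been chosen for small spread in other replicates of the same 4 groups. The abundant features include those that differ between groups. The difference therefore follows largely from the choice and is a description. Most features of each list still had a ratio of 1.15 or more there. These lists are not the same as the 50 members.

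Of the comparisons with 30% at 5 VC, that of 0% at 5 VC is the one matched in volume changes. The protocol gives 70 h against 66 h. Their sampling points, numbered 4 and 1, are not matched, so oxygen and order of sampling cannot be told apart in it. The groups of 0% at 0.4 and 4 VC (5 and 50 h) differ from 30% at 5 VC in time as well as oxygen, and the effects of oxygen and time cannot be told apart there. edgeR was fitted with TMM factors, which scale libraries so that most features do not change on balance, and not on the CPM that chose the members. In 0% at 0.4 VC against 30% at 5 VC, 10 of 50 members passed an adjusted p of 0.05, all higher at 0% oxygen, where 47.8% of all features tested were called. In 0% at 4 VC against 30% at 5 VC 2 members were called, both higher (50.0% of all features), and in 0% at 5 VC 1 member, higher (45.9%). The choice used these contrasts, so the counts describe the list and test nothing about it. At an unadjusted p under 0.05 the counts were 16, 3 and 5. The shares of all features at that limit were not computed, and they cannot lie below those at the adjusted p. Single libraries weighed on the small counts at an adjusted p of 0.05. When 1 library was left out, features called ran from 2343 to 2748, 2455 to 2767 and 2178 to 2646 in these comparisons. In place of 10 members at 0.4 VC, 1 was called without replicate 1 of 30% at 5 VC. The count was 4 without replicate 3 or 4 of 30% at 5 VC or replicate 1 of 0% at 0.4 VC. It was 5 without replicate 4 of 0% at 0.4 VC, and 6 without replicate 4 of 0% at 4 VC. At 4 VC the count was 4, with 3 higher and 1 lower, without replicate 2 of 0% at 4 VC, and 1 without replicate 3 of that group or any replicate of 30% at 5 VC. At 5 VC it was 0 without replicate 2 or 4 of 0% at 5 VC or replicate 4 of 30% at 5 VC, and 2, both higher, without replicate 3 of 0% at 5 VC or replicate 1 of 0% at 4 VC. The direction turned at 5 VC without replicate 2 of 30% at 5 VC, where the 1 member called was lower. That member was not the one called with all libraries, and neither were those called without replicate 3 of 0% at 5 VC or without replicate 3 of 30% at 5 VC. At 5 VC limma on TPM plus 1 also called 1 member, lower, where 2150 of 5452 features were called. DESeq2 called 1 higher and 1 lower there, with 2625 of 5446 features called.

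Median log2 fold changes of the members were 0.12 in 0% at 0.4 VC, 0.05 at 4 VC and 0.02 at 5 VC against 30% at 5 VC, where all features tested had 0.01, -0.00 and 0.02. These medians hold for TMM factors: on the CPM scale of the choice the members' medians were 0.0027, 0.013 and -0.00096. With TMM factors but without replicate 1 of 30% at 5 VC, the member median was 0.08 at 0.4 VC and -0.0045 at 5 VC. Without replicate 2 of 0% at 4 VC it was 0.012 at 4 VC. At 5 VC it was 0.0018 without replicate 2 of 0% at 5 VC, and 0.037 and 0.041 without replicates 3 and 4 of 30% at 5 VC. At 0.4 VC the members' log2 fold changes ran from -0.08 to 0.32. The median absolute log2 fold changes were 0.12, 0.09 and 0.09 for members and 0.30, 0.31 and 0.28 for all features. The choice limited the ratio of group means, so this difference follows from it at least in part and is a description. The set of all features also includes less abundant ones. A typical member had a standard error of 0.08, so its 95% interval reached 0.18 to either side. The whole interval lay within 1.25-fold of no change for 24, 36 and 37 of the 50 members. For the rest a difference of 1.25-fold lay inside the interval. The choice bears on these counts too, and the share of all features with such an interval was not computed.

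**Figure D3:**
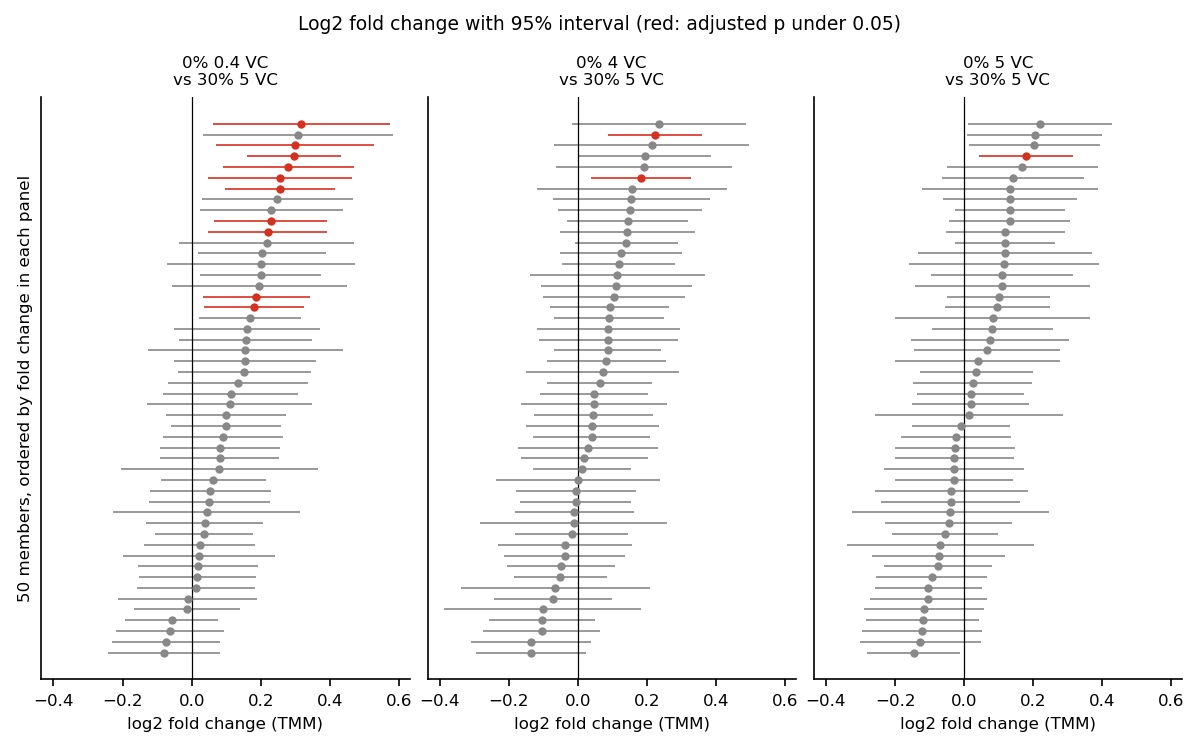
Log2 fold change of the 50 members (points) with 95% intervals (lines) from edgeR's quasi-likelihood fit with TMM factors, for 0% at 0.4, 4 and 5 VC against 30% at 5 VC, ordered by fold change within each panel; red marks an adjusted p under 0.05. At 0.4 VC the points lean to the right, with a median of 0.12 and 10 in red; the later panels have 2 and 1 in red. Without TMM factors the median at 0.4 VC is 0.0027 and 1 member is called there, lower.

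PP7435_Chr1-0309.t01 (2238 nt, chromosome 1) was called in all 3 of these comparisons. It had 313, 339, 338 and 349 CPM in 0% at 0.4 VC, 334, 284, 357 and 371 CPM in 0% at 4 VC, and 327, 312, 344 and 335 CPM in 0% at 5 VC. In 30% at 5 VC it had 329.8, 286, 289.8 and 280.4 CPM. Replicate 1 of 30% at 5 VC overlapped with each 0% group, and the other 3 replicates lay below all values of 0% at 0.4 and 5 VC. Its log2 fold changes were 0.30 ± 0.06 (SE, adjusted p = 0.000964 in edgeR), 0.22 ± 0.06 (adjusted p = 0.0081) and 0.18 ± 0.06 (adjusted p = 0.0305). These 3 comparisons share the libraries of 30% at 5 VC. The other member called at 4 VC was PP7435_Chr2-0580.t01, with a log2 fold change of 0.18 ± 0.07 (adjusted p = 0.0357 in edgeR); without TMM factors it was 0.15 ± 0.10 (adjusted p = 0.253). On the CPM scale of the choice, without TMM factors, the first fold change of PP7435_Chr1-0309.t01 was 0.17 ± 0.09 and was not called (adjusted p = 0.123).

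The largest fold change among the members was that of PP7435_Chr2-0840.t01 (2181 nt, chromosome 2). It had 862, 793, 829 and 832 CPM in 0% at 0.4 VC, 759, 906, 787 and 712 CPM in 0% at 4 VC, and 822, 715, 742 and 841 CPM in 0% at 5 VC. At 30% oxygen its values were 695, 719.7, 758 and 714 CPM. All values of 0% at 0.4 VC lay above all of 30% at 5 VC, while the later 0% groups overlapped with it. The log2 fold change at 0.4 VC was 0.32 ± 0.12 (SE, adjusted p = 0.0389 in edgeR). Without TMM factors it was 0.20 ± 0.09 (adjusted p = 0.0716).

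PP7435_Chr1-0630.t01 (1851 nt, chromosome 1) went the other way and shows what the scale decides. It had 778, 772, 785 and 777 CPM in 0% at 0.4 VC, 859, 812, 873 and 876 CPM in 0% at 4 VC, and 806, 759, 822 and 848 CPM in 0% at 5 VC. The 30% libraries had 905, 873, 908 and 885 CPM. On the CPM scale all values of 0% at 0.4 and 5 VC lay below all of 30% at 5 VC, and its within-group coefficient of variation of 3.05% was the lowest of the members. With TMM factors the log2 fold change at 0.4 VC was -0.08 ± 0.08 and was not called (adjusted p = 0.415 in edgeR). Without them it was -0.20 ± 0.07, and it was then the 1 member called (adjusted p = 0.0314).

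On the CPM scale, the number of members whose 4 values lay all above, or all below, those of the other group can be set beside the same share of all nuclear t features. In 0% at 0.4 VC against 30% at 5 VC, 5 members lay all above and 4 all below, where 49.3% of nuclear t features did one or the other. At 4 VC 0 members lay above and 0 below (38.3% of nuclear t features), and at 5 VC 2 lay above and 3 below (39.3%). These shares, too, are fixed in part by the choice.

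The comparisons among the 0% groups ask what changed with time. In 0% at 4 VC against 0% at 0.4 VC, 1 member was called, lower at 4 VC, where 34.8% of all features were called. PP7435_Chr4-0678.t01 (5067 nt, chromosome 4) had 523, 436, 522 and 506 CPM in 0% at 4 VC, against 506, 621, 553 and 540.1 CPM in 0% at 0.4 VC. The groups overlapped through the first replicate of 0% at 0.4 VC, and the log2 fold change was -0.24 ± 0.08 (SE, adjusted p = 0.0213 in edgeR). Without TMM factors it was -0.16 ± 0.10 and was not called (adjusted p = 0.222). The lowest of these 8 values was again replicate 2 of 0% at 4 VC. Without that library 9 members were called in this comparison, where 1958 of 5462 features were called. The count of members was 0 without replicate 2 or 3 of 0% at 0.4 VC or replicate 4 of 0% at 4 VC. In 30% at 5 VC this member had 635, 533, 515 and 569 CPM.

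In 0% at 5 VC against 0% at 0.4 VC, 1 member was called, lower at 5 VC, where 28.7% of all features were called. PP7435_Chr2-1181.t01 (3684 nt, chromosome 2) had 562, 572, 638 and 479.7 CPM in 0% at 5 VC, against 646, 685, 566 and 607 CPM in 0% at 0.4 VC. The groups overlapped, with the lowest value in replicate 4 of 0% at 5 VC, and the log2 fold change was -0.25 ± 0.09 (SE, adjusted p = 0.0419 in edgeR). Without TMM factors it was -0.15 ± 0.11 and was not called (adjusted p = 0.313). The count was 0 without replicate 1 or 4 of 0% at 0.4 VC, replicate 4 of 0% at 4 VC, replicate 1 of 0% at 5 VC or any replicate of 30% at 5 VC. It was 3 without replicate 2 of 0% at 4 VC and 2 without replicate 2 or 3 of 0% at 5 VC. Features called in this comparison ran from 1265 to 1727 when 1 library was left out. Without replicate 2 of 0% at 0.4 VC or replicate 4 of 0% at 5 VC, 1 member was called, lower, but not this one. Between 0% at 5 VC and 0% at 4 VC, 0 members were called by edgeR and 0 had an unadjusted p under 0.05, where 0.642% of all features were called; DESeq2 called 0 as well. PP7435_Chr3-0419.t01 (2433 nt, chromosome 3) was the 1 member without overlap there, where 3.84% of nuclear t features had none. It had 426, 420.2, 426 and 445 CPM in 0% at 5 VC and 362, 384, 394 and 358 CPM in 0% at 4 VC. All 4 values of 5 VC lay above those of 4 VC, but its log2 fold change of 0.17 ± 0.09 did not pass the threshold (adjusted p = 0.486).

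On the CPM scale, 2 members lay all above and 1 all below in 0% at 4 VC against 0% at 0.4 VC, where 30.5% of nuclear t features did one or the other. In 0% at 5 VC against 0% at 0.4 VC the counts were 0 above and 1 below (32.0% of nuclear t features).

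In the joint test over all 4 groups 2 members were called, where 62.9% of all features were: PP7435_Chr1-0309.t01 (adjusted p = 0.0045 in edgeR) and PP7435_Chr2-1088.t01 (adjusted p = 0.0425). The second (1293 nt, chromosome 2) had 346, 328, 335 and 351 CPM in 0% at 0.4 VC, 319, 272, 346 and 348 CPM in 0% at 4 VC, and 317, 322, 357 and 340.1 CPM in 0% at 5 VC. Its values in 30% at 5 VC were 297, 305, 330.5 and 304 CPM, which overlapped with every 0% group. Without replicate 2 of 0% at 4 VC the joint test called 10 members, where 3637 of 5462 features were called. Without replicate 3 or 4 of 0% at 5 VC it called 3 members. It called 1 without replicate 3 or 4 of 0% at 0.4 VC or of 0% at 4 VC, replicate 2 of 0% at 5 VC, or replicate 1, 2 or 4 of 30% at 5 VC.

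The scale sets much of this picture. The scale of the choice takes the summed nuclear t counts as the library size, with no further factor. On it 1 member was called in 0% at 0.4 VC against 30% at 5 VC, where 2445 of 5452 features were. In every other comparison and in the joint test 0 members were called. Features called were then 2481 at 4 VC and 2280 at 5 VC against 30% at 5 VC, and 3215 in the joint test. They were 1799 and 1499 for 4 and 5 VC against 0.4 VC of 0% oxygen, and 18 for 5 VC against 4 VC. On that scale the median log2 fold change of all features tested was -0.11 in 0% at 0.4 VC against 30% at 5 VC, and 834 features were called higher and 1611 lower, against 1296 and 1310 with TMM factors. Relative to that scale, TMM factors shifted the values of 0% at 0.4 VC by 0.07 ± 0.03 log2 units and those of 30% at 5 VC by -0.05 ± 0.07 (SD, n = 4 each). Read with TMM factors, 28 of the 50 members still met both limits on spread, the median ratio of highest to lowest group mean was 1.13 and the largest 1.25. Counts scaled by RLE size factors also kept 28, deposited TPM values 34, and CPM scaled to all features 46. Constant share of nuclear t counts and constant level relative to the typical feature therefore name partly different features.

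Members were longer than other abundant features, a property that the choice did not use directly. Their median coding length was 3139.5 nt (quartiles 1953 and 3742 nt), against 1564.5 nt for the other abundant features and 1167 nt for all nuclear t features outside the chromosome ends. At least 3000 nt was reached by 26 of 50 members (52%), by 127 of 616 other abundant features (20.6%) and by 354 of 5202 nuclear t features (6.81%). A length below 600 nt was found for 2 members (4%) and 71 other abundant features (11.5%). A limit on CPM favours long features, which gather more reads per transcript, so the comparison of interest is the one within the abundant features. No test was run on it.

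The 666 abundant features were split by length into 4 classes of nearly equal size. From the shortest to the longest class, members numbered 3 of 167 (1.80%), 5 of 167 (2.99%), 16 of 165 (9.70%) and 26 of 167 (15.6%). The median coefficient of variation over 16 libraries in these classes was 21.3%, 23.0%, 18.9% and 14.3%. Across the 666 features, length and coefficient of variation had a Spearman correlation of -0.29, and length and within-group coefficient of variation one of -0.38; the features share the same 16 libraries. Among the 50 members, whose spread the choice had limited, it was 0.07.

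**Figure D4:**
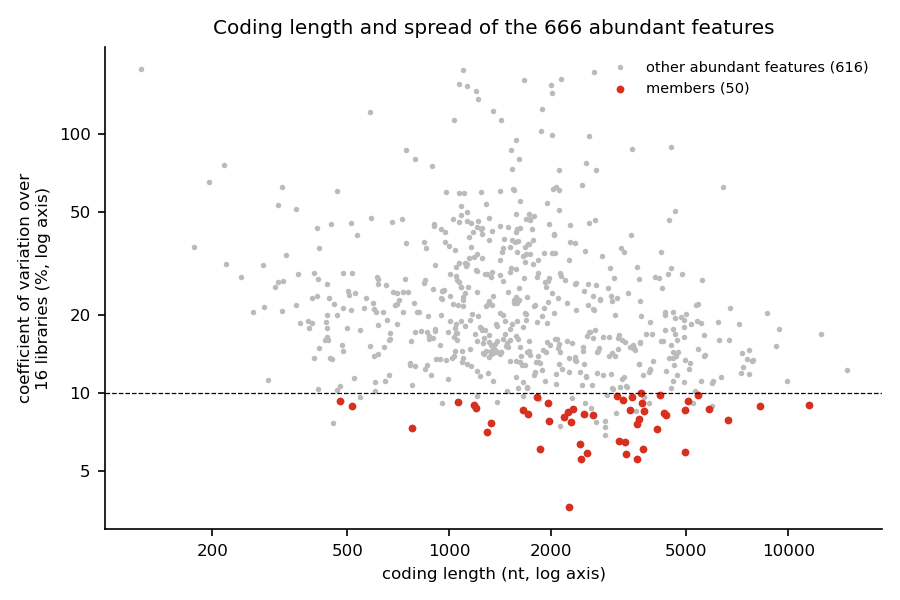
Coefficient of variation over the 16 libraries (y axis, log scale) against coding length (x axis, log scale) of the 666 abundant features, with the 50 members in red and the limit of 10% as a dashed line. Members are concentrated to the right, with a median length of 3139.5 nt against 1564.5 nt for the others; grey points below the line exceed the limit on the ratio of group means.

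The members did not move as 1 group between libraries. Over 1225 pairs of members, the median correlation of log2 CPM across the 16 libraries was 0.09, from -0.88 to 0.97, with 59 pairs above 0.7 and 20 below -0.7. The closest pair was PP7435_Chr2-1095.t01 (2313 nt) and PP7435_Chr2-0580.t01 (3243 nt), at 0.97. The first had 558, 539, 495 and 522 CPM in 0% at 0.4 VC, 573, 434, 600.0 and 593 CPM in 0% at 4 VC, 573, 479.5, 565 and 539 CPM in 0% at 5 VC, and 553, 506, 474 and 513 CPM in 30% at 5 VC. The second had 316, 321, 295 and 305 CPM in 0% at 0.4 VC, 347, 254, 355 and 357 CPM in 0% at 4 VC, 341, 278, 340.4 and 307 CPM in 0% at 5 VC, and 309, 295, 280.1 and 301 CPM in 30% at 5 VC. Both were lowest in replicate 2 of 0% at 4 VC and overlapped between all groups. The most opposed pair was PP7435_Chr4-0847.t01 (3405 nt) and PP7435_Chr2-0340.t01 (1644 nt), at -0.88.

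The first principal component of the members' log2 CPM held 38.0% of their variance, and the second 16.6%. Scores on the first were highest in replicate 2 of 0% at 4 VC (0.58) and replicate 4 of 0% at 5 VC (0.33), and replicates of 1 group lay far apart on it. The 50 loadings had a Spearman correlation of -0.66 with coding length. Positive loadings were found for 1 of the 25 longer members (3156 to 11478 nt) and for 15 of the 25 shorter ones (477 to 3123 nt). The leading axis of the members' spread thus followed coding length, and replicates of 1 group differed on it.

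The same contrast was present in all abundant features. The median departure of the longest class minus that of the shortest ran from -0.37 log2 units in replicate 4 of 0% at 5 VC to 0.30 in replicate 1 of 30% at 5 VC, and stood at -0.35 in replicate 2 of 0% at 4 VC. Group means were -0.06 ± 0.20 in 0% at 0.4 VC, -0.01 ± 0.23 in 0% at 4 VC, -0.08 ± 0.24 in 0% at 5 VC and 0.12 ± 0.15 in 30% at 5 VC (SD, n = 4 each). The spread between replicates was as large as the difference between groups. For the longer minus the shorter members the values were -0.01, 0.08, -0.12 and -0.12 in 0% at 0.4 VC, 0.04, -0.15, 0.03 and 0.07 in 0% at 4 VC, 0.04, -0.03, 0.08 and -0.18 in 0% at 5 VC, and 0.15, 0.01, -0.08 and 0.11 in 30% at 5 VC. Libraries low in one measure were mostly low in the other. The part of this contrast in the members' spread, and its cause, was not tested.

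**Figure D5:**
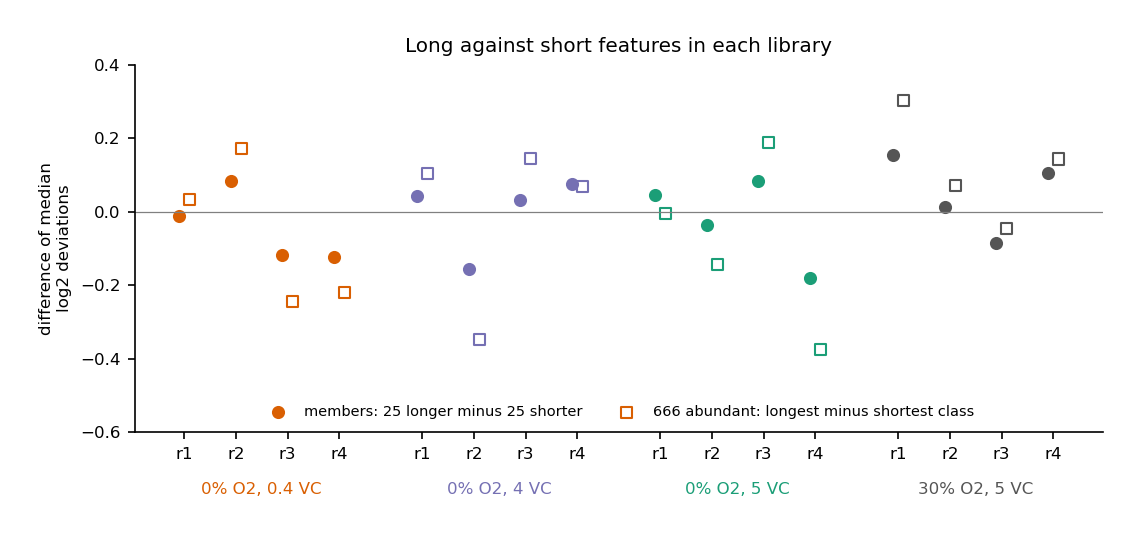
Difference of median log2 departures between long and short features in each library: filled circles give the 25 longer minus the 25 shorter members, open squares the longest minus the shortest of 4 length classes of the 666 abundant features. Squares run from -0.37 to 0.30, and circles from -0.18 to 0.15, with replicates of 1 group on both sides of 0.

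On the chromosomes the members were scattered. Chromosomes 1 to 4 held 13, 20, 7 and 10 members, which is 6.50%, 10.7%, 4.55% and 8.00% of the abundant features of each. The closest pair, PP7435_Chr2-1093.t01 and PP7435_Chr2-1095.t01, lay 2 identifiers apart, and PP7435_Chr2-0837.t01 and PP7435_Chr2-0840.t01 lay 3 apart. No 2 members had neighbouring identifiers.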

How the data were processed

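Deposited tables, 1 per library, list for each of 5564 features its length, effective length, estimated count and TPM, per the file headers. Estimated counts are reads that the authors assigned to a feature, not normalised by them; the deposited TPM divides these by effective length and brings every library to the same sum. Tools named in the submitters' processing notes, with no role given, are kallisto 0.44.0, DESeq2 1.36.0, R 4.2.0, Bowtie2 2.3.4.1, cutadapt 1.18 and SAMtools 1.9. Not given in the sources used here: build, annotation and strandedness. Identifier suffixes are not explained; 99.96% of nuclear t features have lengths that are multiples of 3, hence the term coding length.

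Estimated counts were rounded. edgeR 4.0.16 (R 4.3.3) was run with filterByExpr (112 features removed, 5452 tested), TMM factors and a quasi-likelihood fit with 1 mean per group to all 16 libraries. The 6 contrasts and a joint F test were adjusted by Benjamini-Hochberg over all features tested, with a threshold of 0.05 and two-sided 95% intervals; standard errors derive from the F statistic. Alternatives were other scalings, DESeq2 1.42.0, limma 3.58.1 (voom, and log2 of TPM plus 1 or 0.1), other filters, a replicate block, 2 groups alone, and leaving out libraries. The code was tested on simulated data. Replicates differed by more than sampling noise (chi-square over its degrees of freedom 19.2 or more). Depth was 23085262 to 40699763 counts, and counting error was below 1% for every member.

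The members, lists and tests were chosen with earlier results of these data known. Named are the 10 members with most CPM, the 10 with the lowest coefficient of variation, those next to each limit, the longest and the shortest, and those with the largest fold change in each comparison; others were named after their values were seen. Gene lists by symbol could not be applied, and sequences and coordinates were not used here.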

Additional observations from a re-analysis of the deposited data

Results flagged for a closer look

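In all, 120 sets of 4 replicates were checked for a library far from the other 3. They covered the named members, the members' summed share of nuclear t counts and the measure of long against short features. By Dixon's 95% limit 9 sets held one, where chance gives about 1 in 20 sets, or 6. All sets come from the same 16 libraries and are not independent, so the 2 numbers cannot be compared as a test. Replicate 2 of 0% at 4 VC accounted for 4 of them. PP7435_Chr4-0667.t01 had 804 CPM there, against 941 to 960.1 in the other 3 replicates. PP7435_Chr2-0837.t01 had 279 CPM there, against 360.4 to 369.8. PP7435_Chr4-0847.t01 had 347 CPM there, against 419 to 426. The longest minus the shortest length class of abundant features stood at -0.35 log2 units in that library, against 0.07 to 0.14.

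In other libraries of 0% at 4 VC, PP7435_Chr1-0352.t01 had 707 CPM in replicate 4, against 797 to 809 in the others of the group, and PP7435_Chr1-0486.t01 had 397 CPM in replicate 1, against 356 to 361. In 0% at 5 VC, PP7435_Chr2-0436.t01 had 628 CPM in replicate 4, against 745 to 751. PP7435_Chr4-0916.t01 had 398 CPM in replicate 1 of 0% at 5 VC, against 377 to 380.3, and PP7435_Chr1-1465.t01 had 483 CPM in replicate 2, against 532 to 542.

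For 2 members edgeR's contrast between time points of 0% oxygen passed the threshold, where 34.8% and 28.7% of all features were called. The 30% libraries come from 5 VC only, so they cancel out of any such contrast. It therefore says nothing on oxygen, and the 2 calls are those already given above. PP7435_Chr4-0678.t01 was lower in 0% at 4 VC than in 0% at 0.4 VC by a log2 fold change of -0.24, and PP7435_Chr2-1181.t01 was lower in 0% at 5 VC than in 0% at 0.4 VC by -0.25. On the CPM scale of the choice, without TMM factors, the values were -0.16 (adjusted p = 0.222) and -0.15 (adjusted p = 0.313), and neither was called.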

How the results depend on the processing

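The comparisons are listed as 0% at 0.4, 4 and 5 VC against 30% at 5 VC, then 0% at 4 and 5 VC against 0% at 0.4 VC, then 0% at 5 VC against 0% at 4 VC, then the joint test. Members called, which were 10, 2, 1, 1, 1, 0 and 2, became 16, 6, 7, 0, 0, 0 and 5 with upper-quartile factors. They became 1, 0, 0, 0, 0, 0 and 0 with the nuclear t sum and no factor, and 1, 0, 1, 0, 0, 0 and 1 with limma on TPM plus 1 or plus 0.1. DESeq2 called 14, 3, 2, 1, 6, 0 and 8, and the fits of 2 groups alone 13, 1, 0, 0, 2 and 0. RLE factors, limma-voom, no filter and 50 counts in 4 libraries left these counts as they were. Leaving out 1 library gave 1 to 14, 1 to 4, 0 to 2, 0 to 9, 0 to 3, 0 to 0 and 1 to 10. Features called with upper-quartile factors were 2586, 2732, 2612, 1929, 1610, 43 and 3474 of 5452. With DESeq2 they were 2716, 2812, 2625, 2074, 1707, 113 and 3691 of 5446. On TPM plus 1 they were 2377, 2394, 2150, 1814, 1293, 11 and 3134 of 5452. The fits of 2 groups alone called 2923, 2466, 2379, 1793, 1671 and 0 features. The cause of the shifts in members called was not tested.

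The 35 features called between 0% at 5 VC and 0% at 4 VC became 18 with no factor, 113 with DESeq2, 11 on TPM with either pseudocount and 0 from the 2 groups alone; leaving out 1 library gave 16 to 41. Other counts of features called stayed within 1.5 times. Leaving out 1 library, they ran from 2343 to 2748, 2455 to 2767, 2178 to 2646, 1590 to 1973 and 1265 to 1727 in the first 5 comparisons, and from 3163 to 3637 in the joint test. With no factor, 1113 features were called higher and 686 lower in 0% at 4 VC against 0% at 0.4 VC, where TMM factors gave 916 and 984. In 0% at 5 VC against 0% at 0.4 VC these were 992 and 507, where TMM factors gave 745 and 822.

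The 50 members became 124 with a mean of at least 100 CPM, 3 with at least 1000 CPM, 20 with a coefficient of variation under 0.08 and 22 with a ratio under 1.1. A coefficient of variation under 0.12 gave 69, a ratio under 1.2 gave 68, and keeping the chromosome ends 51. Choosing on TMM factors gave 43 members, of which 27 were among the 50. RLE factors gave 48 (28 shared), TPM 39 (34 shared), CPM scaled to all features 49 (44 shared), and leaving out 1 library or replicate number 41 to 54. Of 28 named members, the ratio of group means moved by more than the replicate spread for 5 with TMM, 5 with RLE, 1 with TPM and 0 with all features.

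The replicate numbers showed no clear pairing of the libraries. Same-numbered libraries of different groups correlated at -0.45 to 0.42 in their deviations, and 9 of 24 pairs were above 0.1. Of 16 libraries, 6 correlated best with their own number. Shifts of single libraries also enter these correlations, so they cannot show whether same-numbered libraries came from one reactor run. With the replicate block, 10, 2, 2, 1, 0, 0 and 3 members and 2554, 2697, 2472, 1843, 1532, 29 and 3356 features were called. Without both replicate 2 of 0% at 4 VC and replicate 1 of 30% at 5 VC, an alternative chosen after seeing the data, 65 members were found, 41 of them among the 50. Members called were then 11, 3, 1, 10, 5, 0 and 9, and features called 2650, 2609, 2517, 2078, 1843, 66 and 3561.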
